A study of Mus musculus with 6 samples.

Results

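The genes described here are 6 markers of the nerve supply of fat: Th and Dbh, which make noradrenaline, Ngfr, a neurotrophin receptor, and Sox10, S100b and Mbp, which mark Schwann cells and their myelin. They are 6 of 21342 gene symbols on the array, and they were chosen by name: every probe other than a control whose gene name is one of the 6 was taken. This gave 10 probes of 150305. A further 6 custom probes carry the RefSeq accession of one of these genes in place of its symbol, and they are shown beside the 10 as separate readouts.

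The RNA came from abdominal adipose tissue of C57BL/6 mice that were all 6 weeks old when a high-fat diet began and are labelled as diabetic once 12 weeks of it had passed. They were then randomised to duodenal-jejunal bypass (DJB), with a biliopancreatic limb of 5 cm and a Roux limb of 4 cm, or to Sham, in which the bowel was cut and sewn back in place. Each group has 3 arrays, and whether these are separate animals is not in the labels, so p-values reflect the spread between samples that may be technical repeats. The labels give neither the fat depot nor the time after surgery. All 9 adipocyte markers examined were well above background on all 6 arrays.

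In fat, postganglionic sympathetic axons run along vessels and between adipocytes and release noradrenaline, which drives lipolysis and, in thermogenic fat, heat production. The cell bodies of these neurons lie in ganglia outside the depot, so most neuronal mRNA is made elsewhere. Schwann cells wrap the axons within the tissue, mostly as non-myelinating cells that hold several thin axons each. In bulk tissue, fewer cells of a type and less RNA per cell cannot be told apart.

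Values are the log2 of the processed signal minus the 75th percentile of that array, so 0 is the level of the 75th percentile. Differences are DJB minus Sham on this log2 scale, and testing required a signal well above background in 3 or more of the 6 arrays. Adjusted p-values are from limma's moderated test over all 99423 tested probes, with a threshold of 0.05. The 75th percentile of signal ranged from 175.8 to 183.7 on Sham and from 132.0 to 165.3 on DJB arrays, and 62.6% to 68.8% of probes per array were well above background. Correlations between arrays were 0.973 to 0.989 within a group and 0.944 to 0.980 between groups. The arrays lay on 2 slides, slide 1 with 2 arrays per group and slide 2 with 1.

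Of the 10 probes of the 6 genes, 8 could be tested and 2 were not well above background on any array. One probe of Ngfr was called lower in DJB and 0 probes were called higher, where limma gave 2 of the 8 an unadjusted p under 0.05, both lower. Over all tested probes 5.00% were called, 3.16% lower and 1.84% higher. The DJB and Sham arrays did not overlap for 2 of the 8, a probe of Ngfr and the probe of S100b, against 36.1% of all tested probes, 14.2% with DJB lower. The plot of signal by array shows all 16 probes.

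**Figure D1:**
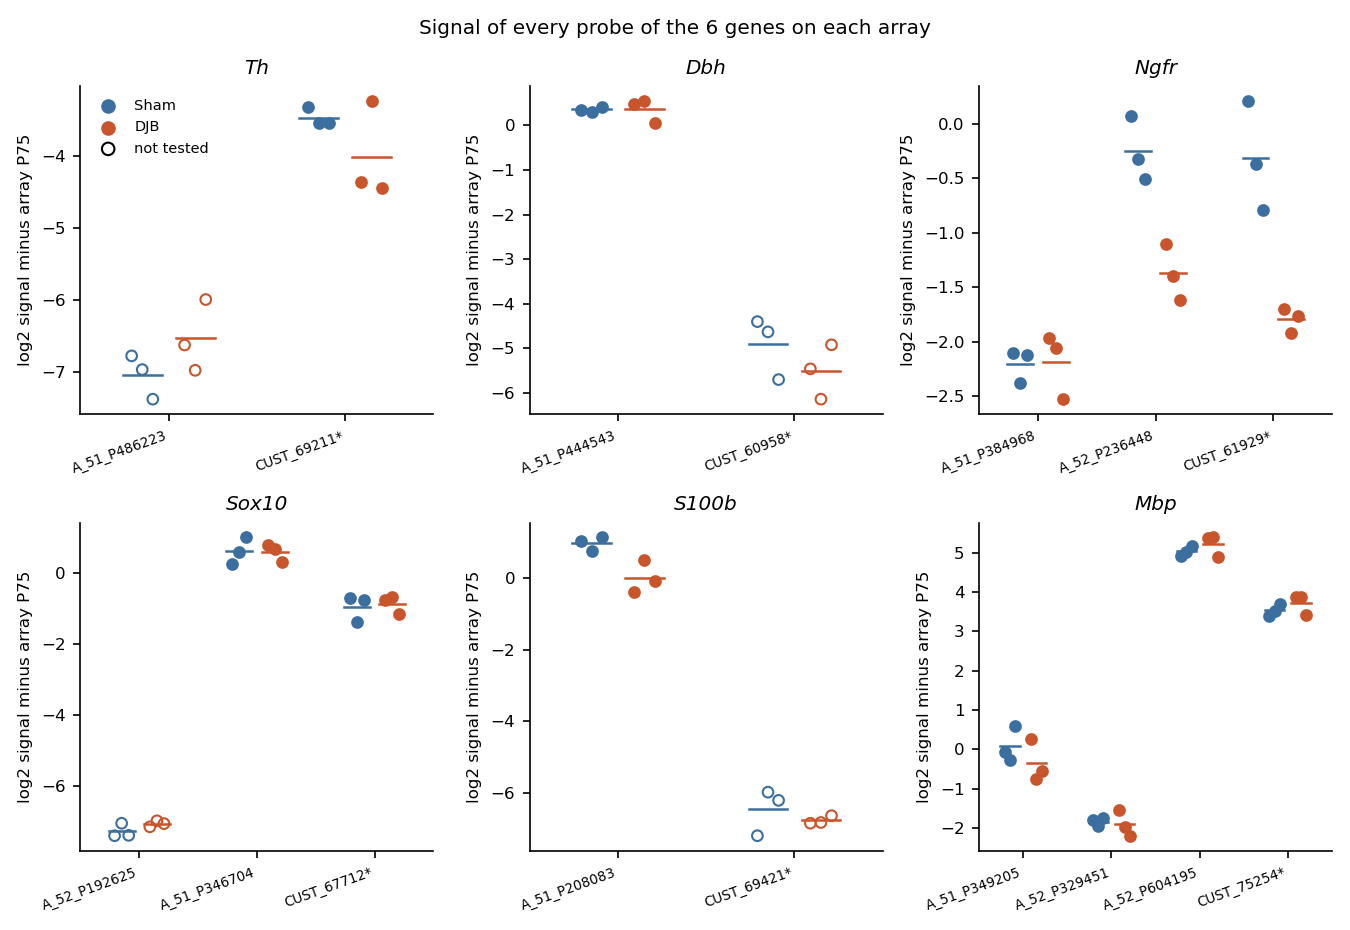
Log2 signal relative to the 75th percentile of the array (y axis) for each probe (x axis) of the 6 genes, 3 Sham arrays in blue and 3 DJB arrays in orange, with horizontal bars at the group means. Open circles are probes that were not tested and an asterisk marks the custom probes; the groups separate at the catalogue 3′ probe and the custom probe of Ngfr and at the tested probe of S100b and overlap elsewhere.

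The sequences below are those of 5 catalogue probes in coding sequence, printed 5′ to 3′ as the files give them and in lower case. No probe of Mbp is printed, whether or not it lies in coding sequence. They are shown because, for Th, Dbh, Sox10 and S100b, the coding probe and another probe of the gene differed in whether they were measurable. Positions are mm9, from the files.
Th (chr7:150079917-150079976, minus strand, base 1278 of the transcript): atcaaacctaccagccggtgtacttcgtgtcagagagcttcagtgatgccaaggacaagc
Dbh (chr2:27037081-27037140, plus strand, base 1673 of the transcript): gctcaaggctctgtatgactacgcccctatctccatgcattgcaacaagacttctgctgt
Ngfr (chr11:95435537-95435596, minus strand, base 878 of the transcript): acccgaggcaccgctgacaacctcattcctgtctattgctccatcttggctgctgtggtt
Sox10 (chr15:78986883-78986942, minus strand, base 1113 of the transcript): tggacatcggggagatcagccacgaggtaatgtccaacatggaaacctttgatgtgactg
S100b (chr10:75722709-75722768, plus strand, base 305 of the transcript): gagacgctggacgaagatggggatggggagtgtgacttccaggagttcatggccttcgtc
Each is 60 bases long, and each has at least 1 reading frame free of stop codons. None of the 16 probes shares its sequence with another probe of the array. The second catalogue probe of Ngfr starts at base 3270 of the transcript and that of Sox10 at base 2491, past the coding sequence, 5266 and 1318 bases from the coding probe on the genome. Of the 6 custom probes 5 hold AATAAA or ATTAAA, the hexamers that precede a poly(A) site, read on the printed strand, against 32.4% of all custom and 6.70% of all catalogue mRNA probes.

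Ngfr encodes the p75 neurotrophin receptor, which binds all neurotrophins and is carried by sympathetic neurons, by non-myelinating and immature Schwann cells and by some perivascular cells. Its catalogue 3′ probe (A_52_P236448) read 0.07, -0.32 and -0.51 in Sham and -1.10, -1.40 and -1.62 in DJB. All 3 DJB arrays lay below all 3 Sham arrays. The mean was -0.25 ± 0.30 in Sham and -1.37 ± 0.26 in DJB (SD, n = 3 each), a 2.17-fold lower signal in DJB (difference -1.12, SE 0.21, 95% interval -1.62 to -0.62, adjusted p = 0.0428).

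The custom Ngfr probe, which holds a poly(A) hexamer but whose position in the transcript the files do not give, gave a second reading. It was 0.21, -0.37 and -0.79 in Sham and -1.70, -1.92 and -1.77 in DJB. The groups again did not overlap, and the signal was 2.79-fold lower in DJB (difference -1.48, SE 0.26, 95% interval -2.10 to -0.86, adjusted p = 0.0384). The coding probe printed above (A_51_P384968) did not follow. It read -2.11, -2.38 and -2.12 in Sham and -1.97, -2.06 and -2.53 in DJB, and the groups overlapped. Its difference was 0.02 (SE 0.18, 95% interval -0.43 to 0.46, adjusted p = 0.961), and its sign turned without Sham-2, without DJB-1 or without DJB-2.

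The probes of Ngfr therefore gave different answers on the same arrays. The coding probe minus the catalogue 3′ probe was -2.18, -2.06 and -1.60 in Sham and -0.87, -0.66 and -0.91 in DJB, a shift of 1.13 with no overlap. Against the custom probe the shift was 1.498, also without overlap. In an exact two-sided permutation test both gave p = 0.10, the smallest that 3 against 3 arrays allow, and 0.40 after Benjamini-Hochberg adjustment over the 10 probe pairs compared. The catalogue 3′ probe and the custom probe differed from each other by a shift of 0.36, with overlapping groups (exact permutation p = 0.20, adjusted 0.40).

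The 2 slides gave the same direction for these 2 probes of Ngfr, -1.03 on slide 1 and -1.30 on slide 2 for the catalogue probe and -1.52 and -1.40 for the custom probe. With the slide as a block neither was called (adjusted p = 0.0679 and 0.0702), and 0.711% of all probes were called in that fit. Over 15 alternative fits the adjusted p of the catalogue 3′ probe ranged from 0.0183 to 0.140 and it was called in 6. Leaving out any 1 of the 6 arrays ended its call, with differences from -1.25 to -0.95. The custom probe was called in 7 of 15, with an adjusted p from 0.0152 to 0.124, and among the fits without 1 array only without Sham-3. With normexp background correction the differences were smaller, -0.58 and -0.90, and both were called. The plot of settings shows these values.

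**Figure D2:**
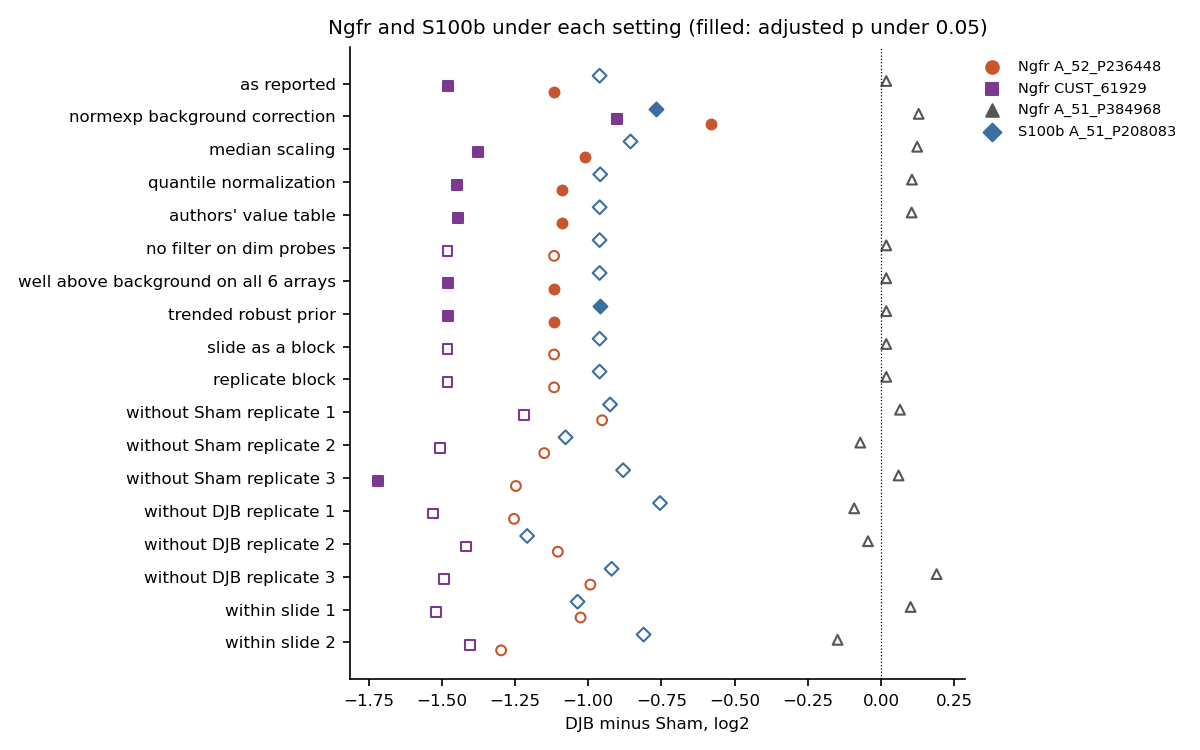
Difference between DJB and Sham on the log2 scale (x axis) for the 3 Ngfr probes and the S100b probe under each setting (y axis); filled symbols have an adjusted p under 0.05, and the within-slide values were not tested. The catalogue 3′ and custom probes of Ngfr and the S100b probe stay below 0 in every setting shown, whereas the coding probe of Ngfr lies on both sides of 0.

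Some markers of vessel wall cells fell in the same arrays, where 7.50% of all genes were called, 6.10% lower. Of 6 pericyte markers 3 fell, Rgs5 (-1.82), Kcnj8 (-1.15) and Abcc9 (-0.91), the others differed by -0.38 to 0.18 without being called, and the summed signal of the list, in units of the 75th percentile, was 115.5 to 142.4 in Sham and 82.4 to 99.2 in DJB. Of 6 smooth muscle markers 3 fell, Acta2 (-2.40), Myh11 (-2.10) and Cnn1 (-2.61), the others differed by -0.87 to -0.43 without being called, with sums of 313.0 to 462.1 and 124.1 to 152.6. The 4 tested probes of Acta2 ranged from -3.22 to 0.07 and 2 of them were called. All 12 were well above background on all arrays. Their part in the Ngfr result was not tested.

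S100b encodes a calcium-binding protein that marks Schwann cells and other glia, and adipocytes make it too. In mice, S100b from thermogenic adipocytes promotes growth of sympathetic axons. Its coding probe (A_51_P208083) read 1.06, 0.76 and 1.15 in Sham and -0.39, 0.52 and -0.06 in DJB. The lowest Sham array lay above the highest DJB array. The mean was 0.99 ± 0.21 in Sham and 0.03 ± 0.46 in DJB (SD, n = 3 each), and the difference was -0.96 (SE 0.25, 95% interval -1.57 to -0.35). It did not pass the test (adjusted p = 0.0763).

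The S100b difference was -1.04 on slide 1 and -0.81 on slide 2. It was called in 2 of 15 alternative fits, with normexp (-0.77, adjusted p = 0.0323) and with a trended robust prior (-0.96, 0.0423), in a range of 0.0323 to 0.220. The custom S100b probe rose well above background on none of the 6 arrays. Of the 9 adipocyte markers 3 fell (Lep -2.96, Retn -1.20, Pparg -0.72), against 6.10% of all genes called lower. Lep and Pparg were each called at 1 of 2 probes. The other markers differed by -1.60 (Plin1) to 0.08 (Fabp4) without being called. The summed signal of the list was 2959 to 3438 in Sham and 1460 to 2616 in DJB. The part of these markers in the S100b values was not tested. Clstn3, whose locus in mice also gives an adipocyte protein that promotes S100b secretion, differed by -1.31 (SE 0.39, adjusted p = 0.0942), and was chosen after its values were seen.

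Sox10 encodes the transcription factor that the Schwann lineage needs at every stage. On none of the 6 arrays was its coding probe well above background. The catalogue 3′ probe (A_51_P346704) read 0.27, 0.60 and 1.01 in Sham and 0.81, 0.67 and 0.33 in DJB. The groups overlapped over most of their range, and the difference was -0.03 (SE 0.23, 95% interval -0.57 to 0.52, adjusted p = 0.952). The custom probe read -0.69, -1.37 and -0.75 in Sham and -0.74, -0.68 and -1.14 in DJB. Its difference was 0.08 (SE 0.23, 95% interval -0.47 to 0.64, adjusted p = 0.840).

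Mbp encodes myelin basic protein of compact myelin. The gene also gives the golli transcripts from an upstream promoter, which are found in immune cells as well as neural cells. It lies on chromosome 18, and it has 3 catalogue probes and 1 custom probe, each well above background on all 6 arrays. The brightest catalogue probe (A_52_P604195), listed by the files under transcript variant 8, lies upstream of the other 2 on the genome and read 4.91, 5.01 and 5.18 in Sham and 5.38, 5.39 and 4.90 in DJB. DJB-1 and DJB-2 were above all Sham arrays and DJB-3 was below them. Its difference was 0.19 (SE 0.17, 95% interval -0.23 to 0.61, adjusted p = 0.505).

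The custom Mbp probe of the same accession followed it closely. Its difference was 0.19 (SE 0.17, adjusted p = 0.508), and the gap between the pair was between 1.48 and 1.51 on every array. The other 2 catalogue probes are listed under transcript variant 7. The probe at base 2256 of its transcript (A_51_P349205) read -0.08, -0.27 and 0.60 in Sham and 0.26, -0.76 and -0.55 in DJB (difference -0.43, SE 0.34, 95% interval -1.25 to 0.39, adjusted p = 0.442). The probe at base 916 (A_52_P329451) covers 2305 bases of the genome with its 60, so it crosses a splice junction. It read -1.81, -1.96 and -1.76 in Sham and -1.54, -1.99 and -2.20 in DJB (difference -0.06, SE 0.19, 95% interval -0.52 to 0.40, adjusted p = 0.853). At both of these probes the groups overlapped.

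The array also holds probes named by a genomic interval, a form used for circular RNAs, and 4 of them lie within Mbp and 0 within the other 5 genes. None of the 4 was called by limma (unadjusted p under 0.05 for 1), and the files do not say whether any is circular. The interval of 20888 bases read -1.20, -1.10 and -1.19 in Sham and -0.84, -0.89 and -0.87 in DJB. All DJB arrays were above all Sham arrays, with a difference of 0.30 (SE 0.10, 95% interval 0.06 to 0.54, adjusted p = 0.121). The interval of 431 bases also did not overlap between groups (0.21, SE 0.11, adjusted p = 0.251). The intervals of 2809 bases (0.16, adjusted p = 0.457) and 1206 bases (-0.40, adjusted p = 0.446) did overlap.

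Th encodes tyrosine hydroxylase, the rate-limiting enzyme of catecholamine synthesis. On none of the 6 arrays was its catalogue probe, in coding sequence, well above background, so no difference is given for it. The custom Th probe was well above background on all 6 and read -3.33, -3.55 and -3.55 in Sham and -4.36, -3.24 and -4.45 in DJB. DJB-1 and DJB-3 were below all Sham arrays and DJB-2 was above them. The difference was -0.54 (SE 0.33, 95% interval -1.34 to 0.26, adjusted p = 0.330), and with normexp it was 0.07.

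Dbh encodes dopamine beta-hydroxylase, which converts dopamine to noradrenaline inside synaptic vesicles. Its catalogue probe, in coding sequence, read 0.35, 0.31 and 0.42 in Sham and 0.49, 0.55 and 0.06 in DJB. DJB-1 and DJB-2 were above and DJB-3 below all Sham arrays. The mean was 0.36 ± 0.05 in Sham and 0.37 ± 0.26 in DJB (SD, n = 3 each), and the difference was 0.01 (SE 0.16, 95% interval -0.37 to 0.39, adjusted p = 0.981). The custom Dbh probe was well above background on 1 of 6 arrays, Sham-1, and was not tested.

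**Figure D3:**
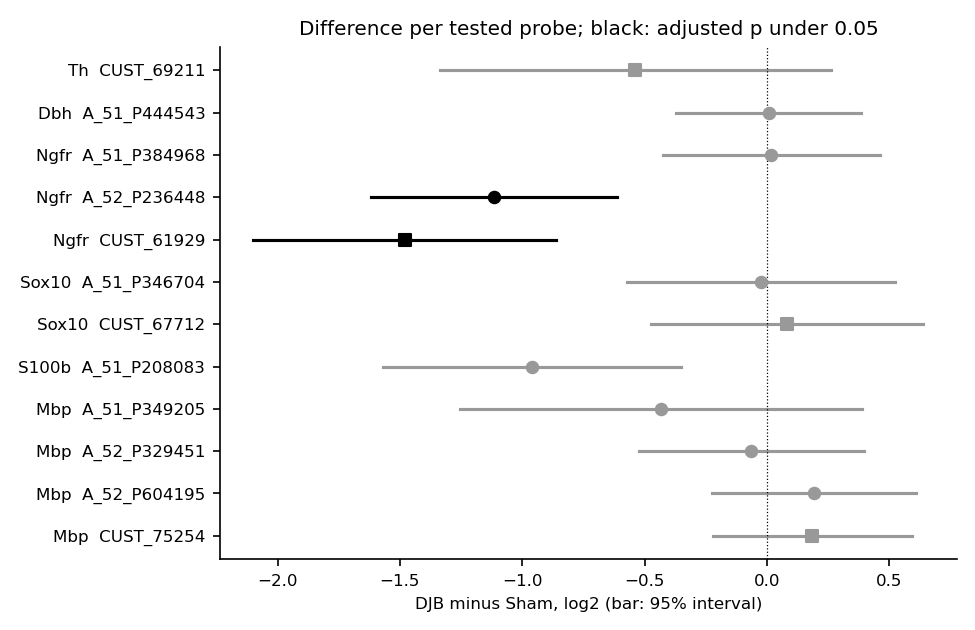
Difference between DJB and Sham on the log2 scale (x axis) with its 95% interval for each of the 12 tested probes of the 6 genes (y axis), catalogue probes as circles and custom probes as squares. The catalogue 3′ and custom probes of Ngfr, in black, have an adjusted p under 0.05, and the S100b interval lies below 0 without passing the adjusted test.

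Genes related to these 6 were examined in 4 lists, described by counts without a set test. The lists were chosen with earlier results of these data known, so the values for all genes beside them serve as description only. Of 92 genes 81 were tested, each by its brightest tested probe, and 12 were called, 10 lower and 2 higher. Among all 18324 genes read in this way 7.50% were called, 6.10% lower and 1.40% higher. The groups did not overlap for 44 of the 81, against 42.0% of all genes, 22.2% with DJB lower. The median difference was -0.36, against 0.0038 for all genes. Blocking on slide left 1 call among the 81, Ret, and 1.28% of all genes. Without 1 array the count was 0 without Sham-1, Sham-2 or DJB-2 (32 to 36 at an unadjusted p under 0.05), 4 without DJB-1, 8 without Sham-3 and 11 without DJB-3.

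The noradrenergic and chromaffin list had 18 of 21 genes tested, with 1 called lower, 1 called higher and a median difference of -0.13. Maob, a monoamine oxidase that breaks down amines, fell by 1.52 (SE 0.21, adjusted p = 0.0283), and both of its probes were called. Npy, which encodes neuropeptide Y, a cotransmitter of sympathetic nerves that other cells of fat also make, rose from 3.22, 3.45 and 3.05 in Sham to 6.00, 4.94 and 5.04 in DJB (2.09, SE 0.30, adjusted p = 0.0298). Its second probe gave 2.14. Ddc, which makes dopamine from the product of Th, read 2.32, 1.36 and -1.5 in Sham and -1.46, -1.63 and -1.61 in DJB (-2.29, SE 0.92, adjusted p = 0.170). Sham-3 lay among the DJB arrays, and without it Ddc was called (-3.40, adjusted p = 0.0178).

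Among the other genes of this list, Cyb561, which supplies electrons for Dbh in secretory vesicles, differed by -0.88 (SE 0.27, adjusted p = 0.106). The noradrenaline transporter Slc6a2 differed by -0.57 (SE 0.35, adjusted p = 0.333) and the vesicular transporter Slc18a2 by 0.38 (SE 0.46, adjusted p = 0.630). These 2 were chosen after their values were seen. Chrna3, a nicotinic receptor subunit of autonomic ganglia, was well above background on none of the arrays, and Vip on 1.

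The pan-neuronal and axonal list had 14 of 18 genes tested, with 1 called lower, 0 called higher (3 with a positive difference and an unadjusted p under 0.05 by limma) and a median difference of -0.58. Syp, which encodes the synaptic vesicle protein synaptophysin, read 1.96, 1.47 and 1.78 in Sham and -0.50, -0.18 and 0.66 in DJB (-1.74, SE 0.31, adjusted p = 0.0414). Its second probe was called too (-1.75). Syn1, the synaptic vesicle protein synapsin 1, was not called at its brightest probe (0.44, SE 0.13, adjusted p = 0.0968), but 2 of its 3 probes were called higher, and the 3 differences ranged from 0.44 to 1.18. Uchl1, an abundant neuronal deubiquitinase, read 4.26, 4.82 and 4.55 in Sham and 5.17, 6.26 and 5.97 in DJB without being called (1.26, SE 0.31, adjusted p = 0.0673). Rbfox3, the neuronal nuclear antigen NeuN, was high on Sham-1 and Sham-2 (0.22 and -0.7) and low on Sham-3 (-2.87) and the DJB arrays (-2.69, -3.11 and -2.98). Its difference was -1.81 (SE 0.74, adjusted p = 0.176), and without Sham-3 it was called (-2.69, adjusted p = 0.0244). These values are of its brightest probe. A custom Rbfox3 probe, well above background on all 6 arrays, did not follow. It read -2.57, -2.75 and -2.52 in Sham, with a difference of -0.06 (adjusted p = 0.799). The remaining probe read -0.77, -1.98 and -3.68 in Sham, with a difference of -2.15 (adjusted p = 0.123).

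The Schwann lineage list had 25 of 29 genes tested, with 4 called lower, 1 called higher and a median difference of -0.16. Prx, which encodes periaxin of myelinating Schwann cells, fell by 0.80 (SE 0.12, adjusted p = 0.0300), while its second probe differed by -0.12 (adjusted p = 0.565). Dhh, a hedgehog ligand made by Schwann cells, fell by 1.09 (SE 0.18, adjusted p = 0.0354), with both probes called.

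Cryab, a small heat shock protein that is also abundant in muscle, fell by 1.71 (SE 0.29, adjusted p = 0.0383) at its brightest probe, and its other 2 probes were called too (-1.87 and -1.77). In the same arrays 5 of 9 tested skeletal muscle markers fell, Acta1 (-4.77), Pvalb (-4.28), Casq1 (-1.91), Myh2 (-1.61) and Tnnc2 (-1.49), against 6.10% of all genes called lower. The other 4, Ckm, Myh1, Tnnt3 and Mylpf, had differences of 0.07 to 0.31 at their brightest probes and were not called there. The 3 tested probes of Myh1 ranged from -2.997 to 0.1974 and 1 of them was called. The lowest probe differences were -0.524 for Ckm, -0.4551 for Tnnt3 and -0.03314 for Mylpf, and no probe of these genes was called. The list had summed signals of 40.4 to 98.4 in Sham and 11.4 to 15.1 in DJB, and Myh4 was well above background on none. Acta1 weighs most in the Sham sums, as it read 4.64, 6.4 and 6.37 there, against 2.76, 2.66 and 2.95 for Mylpf. The part of these muscle markers in the Cryab result was not tested. Fabp7, a fatty acid-binding protein of glia and Schwann precursors, rose by 1.03 (SE 0.20, adjusted p = 0.0453), with both probes called. Mal (-2.86, SE 0.73, adjusted p = 0.0735) and Pllp (-2.01, SE 0.55, adjusted p = 0.0821), membrane proteins of myelin and of epithelia, were not called, and without Sham-3 Mal was (-3.67, adjusted p = 0.0228).

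The neurotrophic ligand and receptor list had all 24 genes tested, with 4 called lower, 0 called higher (0 with a positive difference and an unadjusted p under 0.05 by limma) and a median difference of -0.52. Ret, the signalling receptor for the GDNF family, read 0.91, 0.76 and 0.33 in Sham and -1.37, -1.65 and -1.24 in DJB (-2.09, SE 0.19, adjusted p = 0.0135). With the slide as a block it was still called (adjusted p = 0.0353), and over 15 alternative fits, 11 of which called it, the adjusted p ranged from 0.00345 to 0.102. Its second probe was dimmer, overlapped between groups and was not called (-0.82, SE 0.56, adjusted p = 0.378). Ntrk3, the receptor for neurotrophin 3, fell by 1.81 (SE 0.26, adjusted p = 0.0294) and was called at all 3 probes.

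Bdnf, a neurotrophin that also binds the receptor encoded by Ngfr, read -0.68, -0.23 and -0.55 in Sham and -4.14, -3.21 and -2.06 in DJB (-2.65, SE 0.50, adjusted p = 0.0445). Its other 2 probes were not called (-2.62, adjusted p = 0.0675, and -1.26, adjusted p = 0.473). Nrg4, an adipocyte-secreted neuregulin, fell by 1.83 (SE 0.28, adjusted p = 0.0322), and its second probe was called too (-1.84). Gfra1, a GDNF coreceptor, differed by -2.77 (SE 0.81, adjusted p = 0.0932) at its brightest probe. Its other tested probes were dimmer and differed by -0.92 (adjusted p = 0.160) and -0.79 (adjusted p = 0.195). Sorcs2, a coreceptor of the Ngfr product, differed by -2.16 (SE 1.02, adjusted p = 0.224). Sorcs2 was high on Sham-1 and Sham-2 (3.84 and 2.93) and low on Sham-3 (-0.27), and without Sham-3 it was called (-3.38, adjusted p = 0.0244).

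**Figure D4:**
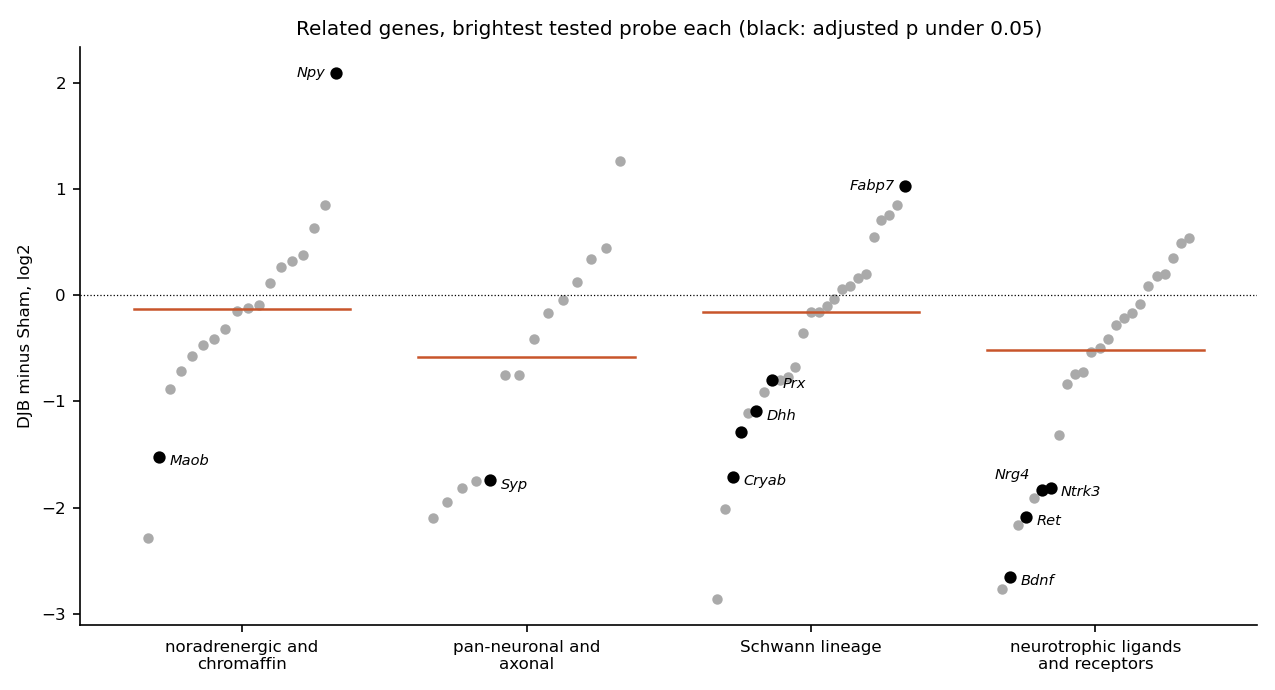
Difference between DJB and Sham on the log2 scale (y axis) for the tested genes of the 4 related lists (x axis), each gene by its brightest tested probe, sorted within a list. Black points have an adjusted p under 0.05, with names for 11 of them, orange lines are list medians and the dotted line is the median of all 18324 genes; 10 of the 12 black points lie below it.

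Reading each gene by its brightest probe left out calls at other probes. Besides Syn1, examples are Gch1 (1 of 3 probes called, differences 0.63 to 1.09), Ntrk2 (2 of 3, -2.31 to -1.11) and Erbb2 (1 of 3, -0.67 to -0.01). These 4 genes were chosen after their values were seen.

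At their brightest probes, Ddc, Rbfox3, Mal and Sorcs2 shared high values on Sham-1 and Sham-2 and a lower value on Sham-3. The custom probe of Rbfox3 did not show this. A marker each of epididymis and of epithelial cells varied in the same way. Adam7 of the epididymis read 1.81, 0.93 and -5.6 in Sham and -4.78, -2.06 and -1.93 in DJB, and Krt8, an epithelial and mesothelial keratin, read 5.84, 5.27 and 2.69 in Sham and 0.91, 0.95 and 2.82 in DJB. Both were chosen after their values were seen. Most other mesothelial markers did not share this and were highest on Sham-3 among the Sham arrays. These were Upk3b (3.55, 3.71 and 4.42 in Sham), Upk1b (3.80, 4.09 and 4.69), Lrrn4 (0.93, 1.44 and 2.01) and Wt1 (3.52, 4.11 and 4.52). Msln read 4.24, 4.51 and 4.46 in Sham and Krt19 read 5.45, 5.13 and 4.84. Of the 7 epididymis markers 5 were tested and 0 called by limma (0 at an unadjusted p under 0.05), with summed signals of 2.00 to 6.81 in Sham and 2.54 to 6.01 in DJB. Adam7 was well above background on 4 arrays. Crisp1 read -0.61, -3 and -5.43 in Sham and -5.33, 1.53 and -4.29 in DJB, so its highest value was on DJB-2. Lcn5 was highest on Sham-2 and DJB-2 (-1.11 and -2.52), and Lcn6, Lcn9 and Lcn10 differed by 0.10 to 0.14. Lcn8 was lower on Sham-3 (-7.28) than on Sham-1 and Sham-2 (-4.58 and -4.93), but was well above background on 1 array. The part of epididymis and epithelial cells in the values of the 4 genes was not tested.

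For the 12 called genes the sign was the same on both slides. Apart from Ret, their adjusted p with the slide as a block lay between 0.0539 (Bdnf) and 0.0768 (Fabp7).

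Over the 6 arrays, the genes whose pattern was most like a member's, by Pearson correlation among the brightest probes of 18319 genes, were 1500009L16Rik (0.997), Mup8 (0.996) and Nell1 (0.996) for the 3′ probe of Ngfr. For S100b they were Ehhadh (0.994), Xkr6 (0.993) and Lingo4 (0.991). For Sox10 they were Pigz (0.998), Usp25 (0.992) and Disp1 (0.991), for Dbh Rexo5 (0.996), Olfr656 (0.992) and Rcn1 (0.992), and for Mbp Timm29 (0.999), Cdc42 (0.995) and Wdfy3 (0.992). With 6 arrays that share their groups, slides and scaling such values are common: 874 genes exceeded 0.9 with Ngfr, 923 with S100b and 141 with Sox10. Th had no tested catalogue probe and was left out.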

How the data were processed

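Each file holds 1 array of 1 colour. Per the file headers, the authors scanned and quantified it with Agilent Feature Extraction 12.0.3.1, and the processed intensity in each deposited file had spatial and multiplicative detrending, with local background correction off and surrogate values for dim spots, and is not scaled between arrays. The deposited flags mark spots well above background, saturated or outlying, and are used as other columns of the authors' files. A second deposited table gives log2 values, whose normalization is not given in the sources used here. Against the scanner values of the matching array every column had r of at least 0.999, and column medians lay between 4.55 and 4.56. Per the submitters' processing notes limma was used, with no version stated.

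The log2 processed signal was scaled by the 75th percentile of each array over 150305 probes. Outlier spots (18 to 25 per array) were set to missing, a probe needed 2 remaining arrays per group, and no probe was saturated. DJB was compared with Sham in limma 3.58.1 (R 4.3.3, no covariates, two-sided, Benjamini-Hochberg adjustment), with pandas 2.3.3 and scipy 1.17.1 in Python 3.11.15. The fit was tested on simulated data. Custom mRNA probes were named by accession through a RefSeq gene table (GRCm38.p6), as were interval probes within genes: 98.2% of 37852 intervals lay inside a gene in that build, against 43.4% and 42.1% after shifts of 500000 bases. The arrays' number limits the precision.

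The members and lists were chosen with earlier results of these data known. Some genes of the lists are not reported here by name. Named genes were the members with all probes, in each list the called genes and the 2 uncalled genes with the largest absolute difference among those well above background on all arrays, the 3 genes most correlated with each member, and the called markers of other cells. The 4 related lists cover noradrenergic and chromaffin, pan-neuronal and axonal, Schwann lineage and neurotrophic genes. Another 12 hold markers of adipocytes, melanocytes, oligodendrocytes, skeletal and smooth muscle, pericytes, endothelium, mesothelium, macrophages, lymph node B and follicular dendritic cells, pancreatic acini and epididymis. The alternatives were background correction, scaling, the authors' table, the filter, the prior, the slide, the replicate number and leaving out each array. For the count of related genes, the mean over all tested probes of each gene was also used. The design text of the series describes another experiment and was not used.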

Additional observations from a re-analysis of the deposited data

How the results depend on the processing

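Of all tested probes 4967 were called, against 11907 with normexp, 649 with no filter, 7549 when all 6 arrays had to be above background, 10620 with a trended robust prior, 707 with the slide as a block, and 119 to 3971 without 1 array. Of the 10 probes of the 6 genes 1 was called, against 2 with normexp or a trended robust prior, and 0 with no filter, with the slide as a block or without any 1 array (2 or 3 with an unadjusted p under 0.05 by limma). Of the related genes 12 were called, against 23 with normexp and 23 with a trended robust prior. The count was 18 when all 6 arrays had to be above background, and 18 with the mean over all tested probes of each gene. It was 1 with no filter and 1 with the slide as a block. Without 1 array it was 0 to 11 (0 without Sham-1, Sham-2 or DJB-2, where 32 to 36 had an unadjusted p under 0.05). With the replicate number of the labels as a replicate block, 0 probes (21438 at an unadjusted p under 0.05), 0 probes of the 6 genes (2) and 0 related genes (38) were called by limma. Arrays of the same number did not deviate together (correlations of -0.18, -0.12 and -0.30), against -0.15 to 0.25 for arrays of different numbers. These are deviations from means of 3 arrays, so they cannot decide whether arrays of the same number were paired. Median scaling moved the median difference of all probes from 0.08 to 0.19. Lower calls were 63.2% of all called probes, against 41.2% with normexp, 51.5% with median scaling, 50.2% with the trended robust prior, 88.8% with no filter and 87.6% with the slide as a block.

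Small differences that were not called changed sign. For Dbh the value was -0.0074 with normexp, -0.0007 in the authors' values, -0.25 within slide 2 and -0.083 to 0.16 without 1 array. For the coding probe of Ngfr it was -0.15 within slide 2 and -0.092 to 0.19 without 1 array. For the catalogue 3′ probe of Sox10 it was 0.0795 with median scaling, 0.0997 within slide 1 and -0.20 to 0.16 without 1 array, and for its custom probe -0.13 to 0.23. For the junction probe of Mbp it was 0.0994 with normexp, 0.0419 with median scaling, 0.0114 with quantile normalization and in the authors' values, 0.0224 within slide 1 and -0.25 to 0.082 without 1 array. The brightest Mbp probe and its custom partner were -0.11 within slide 2, and the custom Th probe was 0.0671 with normexp. The causes were not tested. The alternatives were run for the probes of the 6 genes and for the related genes named by rule, and no other of these changed sign in the 15 fits. They were not run for markers of other cells, the Mbp interval probes, the correlated genes or genes chosen after their values were seen. Within slide 2, Slc18a2 was -0.0625 and the Mbp interval of 2809 bases -0.0896, both against positive values over all arrays.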

Other observations

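The other marker lists describe what else the samples held. Over all genes, each read by its brightest probe, 1.40% were called higher and 6.10% lower. Of 6 macrophage markers 1 was called higher in this way, the integrin gene Itgam (1.23, adjusted p = 0.0306 in limma's test). All 6 values were above 0, with summed signals of 1225 to 1564 in Sham and 1899 to 2083 in DJB. Cd68 and Lyz2 were each called higher at 1 of 2 probes, but not at the brightest. Krt19 was the only called gene of 7 mesothelial markers (-2.51, adjusted p = 0.0294; sums 131.2 to 159.0 and 27.1 to 70.1), and Kdr of 6 endothelial markers (-0.83, adjusted p = 0.0242; sums 165.3 to 186.4 and 102.0 to 142.1).

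Cells that share markers with Schwann cells were examined too. Melanocytes, like Schwann cells, descend from the Sox10-positive neural crest. Of 6 melanocyte markers, Tyr and Tyrp1 were not well above background on any array, and Dct fell by 2.87 (adjusted p = 0.0206). The other tested markers were not called. Mitf differed by 0.74 (adjusted p = 0.0899) with all DJB arrays above all Sham arrays. Pmel differed by -0.34 (adjusted p = 0.176) with all DJB arrays below all Sham arrays, and Mlana by 0.18. The sums of the list were 6.13 to 8.63 in Sham and 9.10 to 11.2 in DJB. Of 7 oligodendrocyte markers, Mog and Ermn were not well above background on any array and none of the 5 tested was called by limma (1 at an unadjusted p under 0.05; sums 13.8 to 14.5 and 12.4 to 16.99). No marker of lymph node B and follicular dendritic cells was called (7 tested, 6 at an unadjusted p under 0.05, all 6 lower; sums 11.3 to 33.9 and 2.30 to 11.8), nor of pancreatic acini (7 tested, 1 at that p; sums 47.0 to 66.5 and 24.4 to 42.3). Over all genes 7.50% were called.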
